A study of Mus musculus with 12 samples.

Results

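Cultured cardiac progenitor cells (CPCs) were profiled as single cells, and the transcripts described here are those of 52 extracellular matrix genes other than collagens. The genes were taken from a list of matrix glycoproteins, proteoglycans and the enzymes that crosslink or build matrix. All 52 symbols were found among the 21729 genes of the count table. The cells came from 12-week-old female FVB mice, were selected as c-Kit+ and lineage-negative from the non-myocyte fraction of pooled hearts, and had been passaged 5 times as an adherent culture on gelatin-coated dishes in serum-containing medium with leukemia inhibitory factor, basic fibroblast growth factor and epidermal growth factor. A full-length cDNA library was made from each of 12 cells, which form 1 group. Cells selected under a microscope from 1 kind of culture are not replicate cultures or animals, and the labels tie no cell to an animal. The group therefore counts as 1 sample, spreads are given as a description of these 12 cells, and no test was made between cells. Fresh cells were not analysed here.

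The extracellular matrix is the secreted scaffold to which cells attach. Fibronectin fibrils are laid down early and receive other proteins. Elastic fibres consist of elastin on a scaffold of fibrillin microfibrils, with fibulins and microfibril-associated proteins as linkers, and lysyl oxidases crosslink elastin and collagen. Small leucine-rich proteoglycans bind collagen fibrils, and laminins, nidogens, perlecan and agrin form the basement membrane. Matricellular proteins such as osteopontin and the thrombospondins signal to cells more than they bear load. In the heart, fibroblasts are the main source of interstitial matrix.

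The total count per cell ran from 3453708 to 5690184, and 10022 to 11950 genes were counted per cell. Levels below are CPM, the count of a gene divided by the total of its cell and multiplied by 1000000. A count of 0 allows up to 3 counts, or 0.527 to 0.869 CPM depending on the cell. The libraries carry no molecular identifiers, so this limit and each interval given cover only the error of counting. Several libraries stood apart. Cell 10 held 9810 CPM summed over 8 endothelial markers, while none of the other cells passed 58.5 CPM, and it had 12.2 CPM of Col1a1, Col1a2 and Col3a1 together. Another fibroblast marker, Pdgfra, was at 175 CPM in cell 10, second only to cell 3 at 276 CPM. Of the remaining fibroblast markers, Thy1 was at 0.939 CPM in cell 10, and Tcf21 and Dpt had no counts there. Cell 3 held 1622 CPM of 6 haematopoietic markers, of which Cd53 made up 1463 CPM while Ptprc and Itgam had no counts there, and no other cell passed 75.6 CPM. Cell 11 held 3668 CPM of Acta2, a smooth muscle actin, with 11.2 CPM of Tagln and no counts of Myh11. The receptor gene Kit, by which the cells had been selected, was counted in cell 10 only. Y-linked transcripts summed to 9.76 to 267 CPM in the cells, although the labels describe female mice.

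Most of the matrix genes were transcribed in at least some of the cells. Of the 52 genes, 21 (40.4%) were counted in every cell, 25 in 1 to 11 cells and 6 (11.5%) in none. Over all genes of the table, 35.3% were counted in every cell and 33.4% in no cell. A mean of 100 CPM or more was reached by 20 matrix genes (38.5%), against 10.1% of all genes. A count was present in 426 of 624 gene-by-cell values (68.3%), compared with 50.5% over all genes. Cell 6 counted the most members, 43, and cells 10 and 11 the fewest, 28 each. Cells 7, 8, 10, 11 and 12, which had 10022 to 10181 genes, counted 28 to 36 matrix genes, while the other cells counted 34 to 41 and, in cell 6, 43. The part of gene detection per library in these numbers was not tested.

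**Figure D1:**
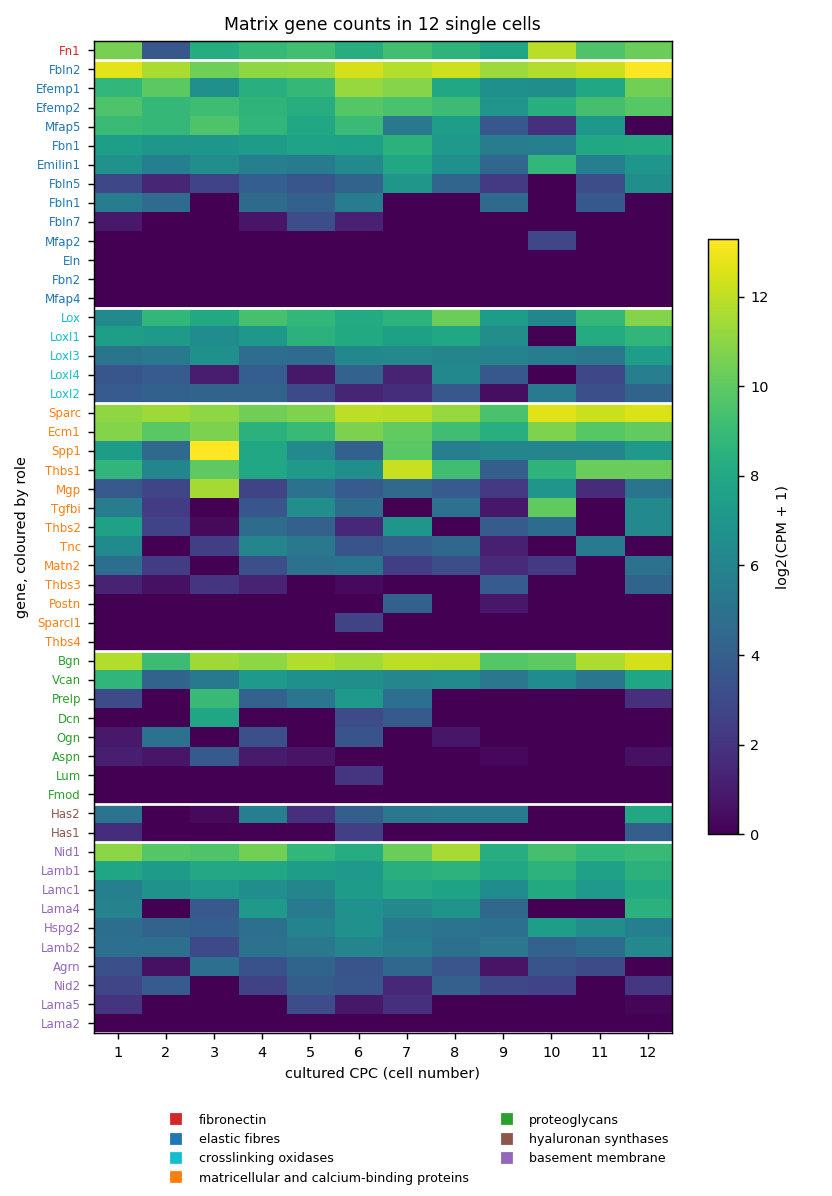
Level of each of the 52 matrix genes (rows, coloured by role and ordered by mean within it) in each of the 12 cells (columns), as log2(CPM + 1). Fbln2, Sparc and Bgn are bright across the row, Spp1 and Mgp are brightest in cell 3, and the rows of Eln, Fbn2, Mfap4, Thbs4, Fmod and Lama2 hold no counts.

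The genes with no count in any cell were Eln (elastin), Fbn2 (fibrillin-2), Mfap4 (a microfibril-associated glycoprotein), Thbs4 (thrombospondin-4), Fmod (fibromodulin) and Lama2 (the laminin chain of muscle basement membrane). Each of the 12 libraries therefore sets its own limit of 0.527 to 0.869 CPM for these genes. In the GENCODE vM21 annotation, 0 to 4.63% of the exonic bases of these genes were shared with another gene. The program and rules used for counting are not stated, and their part in these zeros was not tested. A further 6 genes were counted in 1 to 3 cells. Sparcl1, a relative of Sparc, had 21 counts in cell 6 (exact 95% Poisson interval 13 to 32.1) and none elsewhere. Mfap2, a fibrillin-binding protein, had 32 counts in cell 10 (21.9 to 45.2) and none elsewhere. Lum (lumican) had 12 counts in cell 6 (6.2 to 21), and Postn (periostin), a matricellular protein of activated fibroblasts, had 87 counts in cell 7, 4 in cell 9 and none in the others. Dcn and Has1 were each counted in 3 cells and are described below.

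Promoter sequence was compared with detection, since promoters rich in CpG dinucleotides are typical of widely transcribed genes. RefSeq windows on GRCm38.p6, which span an annotated transcript start, were at hand for 33 of the 52 genes (42 windows). The ratio of observed to expected CpG had a median of 0.441 over 17 windows of the 14 matrix genes counted in every cell. Over 7821 windows of 6077 genes counted in every cell the median was 0.794, and over 5710 windows of 5177 genes counted in no cell it was 0.208. Among the matrix genes the ratio did not follow detection step by step. The median was 0.545 over 22 windows of those counted in 1 to 11 cells, above that of the always-counted genes, and 0.155 over the 3 windows of those with no count. The 100 bases upstream of the start are shown for 4 of the 5 genes with the highest level per length and for 2 genes with no count, to let the starts be read beside the levels. The ratio did not sort strongly expressed from uncounted genes. Among abundant genes not shown it was 0.511 for Efemp1, 0.64 for Nid1 and 0.593 to 0.916 for the 3 windows of Efemp2, and among genes with no count it was 0.053 for Lama2. The genes shown were picked after these ratios were seen. Each is written 5′ to 3′ on the strand of the gene, and capitals mark CpG. The printed stretches, which are parts of the windows, lie at chr11:55420081-55420180 (minus strand) for Sparc, chr6:91212664-91212763 (plus) for Fbln2, chr5:104435011-104435110 (plus) for the first of the Spp1 starts, chr3:95739570-95739669 (minus) for Ecm1, chr13:92794819-92794918 (minus) for Thbs4 and chr1:134037154-134037253 (plus) for Fmod.
Sparc: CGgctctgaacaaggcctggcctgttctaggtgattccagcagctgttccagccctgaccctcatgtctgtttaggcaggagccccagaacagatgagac
Fbln2: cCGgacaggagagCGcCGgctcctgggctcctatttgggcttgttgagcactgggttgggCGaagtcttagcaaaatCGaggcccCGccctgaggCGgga
Spp1: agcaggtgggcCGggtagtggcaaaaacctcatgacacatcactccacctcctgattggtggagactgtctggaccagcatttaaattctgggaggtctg
Ecm1: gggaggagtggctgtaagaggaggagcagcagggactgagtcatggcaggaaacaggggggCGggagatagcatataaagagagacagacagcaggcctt
Thbs4: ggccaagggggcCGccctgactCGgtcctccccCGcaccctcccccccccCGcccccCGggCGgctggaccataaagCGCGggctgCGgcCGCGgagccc
Fmod: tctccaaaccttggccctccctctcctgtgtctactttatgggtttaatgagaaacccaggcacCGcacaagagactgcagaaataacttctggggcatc

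Over the whole window the ratio was 0.174 for Sparc, 0.376 for Fbln2, 0.195 for Spp1, 0.093 for Ecm1, 0.69 for Thbs4 and 0.155 for Fmod. The letters TATAAA, searched on both strands, were present in 8 of the 42 windows of matrix genes (19.0%) and in 12.2% of the 19788 windows of all genes in the count table. The windows of Ecm1 and of the first of the 2 Spp1 starts carried them, whereas those of the second Spp1 start, Sparc, Fbln2 and Bgn did not. The window of the first Spp1 start runs from 104434861 to 104435160, and its match lies outside the 100 bases printed. Such a match describes these letters only.

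Matrix transcripts made up between 0.63% (exact 95% binomial interval 0.623 to 0.637%) of the counts in cell 9 and 3.27% (3.25 to 3.28%) in cell 12. The sum over the 52 genes had a median of 20024 CPM, with 6299 CPM in cell 9 and 32679 CPM in cell 12. Cells 2, 4 and 5 were also low, at 11489, 11430 and 12057 CPM, and the remaining cells lay between 18779 and 26010 CPM. The highest sum was 5.19 times the lowest. Elastic fibre genes held 32.1% of the sum over all cells, matricellular and calcium-binding proteins 34.6%, proteoglycans 15.8%, basement membrane genes 8.47%, fibronectin 4.54%, crosslinking enzymes 4.35% and hyaluronan synthases 0.217%. The order of the first pair rested on cell 3, without which elastic fibre genes held 34.8% and matricellular genes 30.3%. The median of the shares per cell was 31.8% for elastic fibre genes and 27.8% for matricellular genes.

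**Figure D2:**
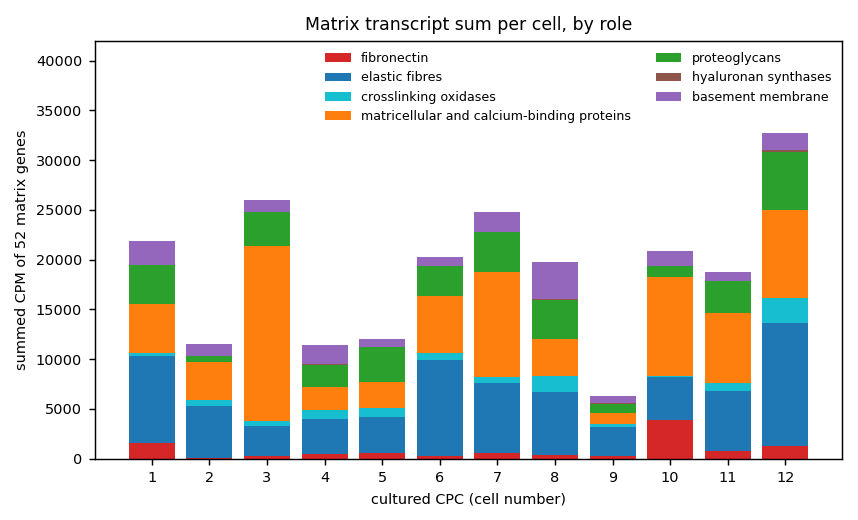
Summed CPM of the 52 matrix genes in each of the 12 cells, with bars stacked by role. Cell 12 reaches 32679 CPM and cell 9 only 6299 CPM, and in cell 3 the matricellular genes alone hold 17576 CPM.

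The leading gene differed between cells. Fbln2 had the most counts of any matrix gene in cells 1, 2, 4, 6, 8, 9 and 12, Bgn in cell 5, Sparc in cells 10 and 11, Spp1 in cell 3 and Thbs1 in cell 7. In cell 3, Spp1 alone held 38.2% of the matrix counts, and in cell 9 Fbln2 held 41.2%. The 5 most abundant matrix genes of a cell held 66.6 to 80.0% of its matrix counts.

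Levels of different genes were compared per length, as RPKM, the CPM divided by the length of the gene in kilobases, with the union of all annotated exons as the length. Sparc was highest, at 844 ± 497 RPKM (SD, 12 cells), followed by Fbln2 (653 ± 363), Spp1 (596 ± 1719), Bgn (454 ± 239), Ecm1 (413 ± 211) and Efemp1 (355 ± 380). For every pair of neighbours in this order the ranges over cells overlapped, so the order of neighbours lies within the spread between cells. The places of Spp1 and Mgp rested on cell 3. By the median over cells Spp1 fell from place 3 to place 13 and Mgp from place 7 to place 19. Among all genes with a length, Sparc was at place 45 and Fbln2 at place 67 by mean RPKM.

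**Figure D3:**
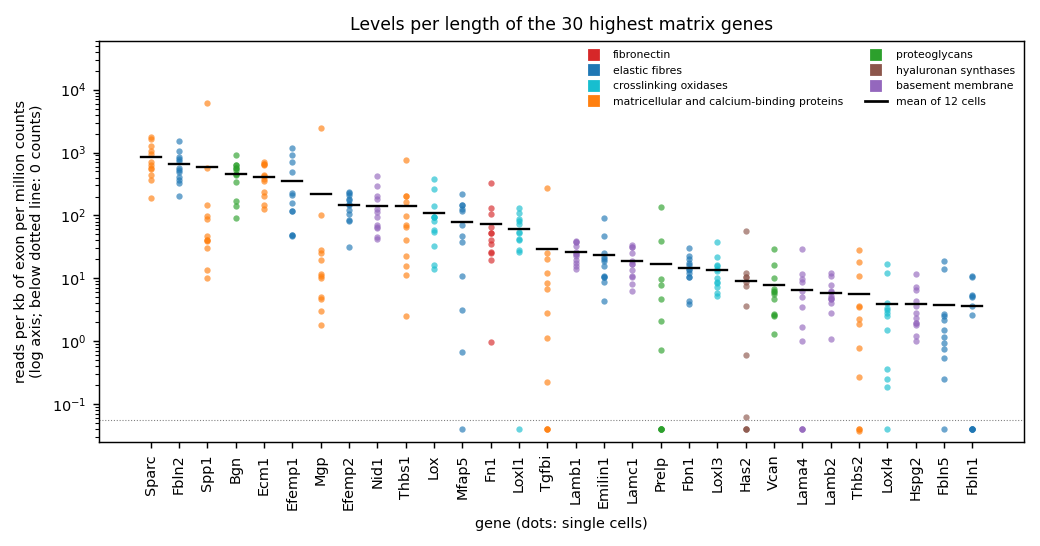
Level per length (log axis) of the 30 matrix genes with the highest mean, with 1 dot per cell and a line at the mean of 12 cells; dots below the dotted line had no counts. Sparc, Fbln2, Bgn and Ecm1 keep every cell at 90.4 RPKM or more, while for Spp1 and Mgp the mean lies above nearly all cells.

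Fibronectin (Fn1, chromosome 1, 71585520 to 71653200, mm10) was counted in every cell but varied widely. The lowest level was 11.4 CPM in cell 2, the median 542 CPM and the highest 3830 CPM in cell 10. The next cell, cell 1, was at 1512 CPM. The cell with the most Fn1 was thus the one with endothelial markers and almost no fibrillar collagen transcripts, and without it the mean was 587 ± 446 CPM (SD, 11 cells) in place of 857 ± 1028 CPM. Cell 2, at 46 counts of Fn1, had 3108 CPM of Fbln2 and 2721 CPM of Sparc.

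Among the 13 elastic fibre genes, 5 were counted in every cell and 3 in none. Fbln2 (chromosome 6, 91212455 to 91272540), the fibulin that binds fibronectin, fibrillin and basement membrane proteins, ranged from 1315 CPM in cell 3 through a median of 3513 CPM to 9563 CPM in cell 12. The other strongly expressed linkers were Efemp1 and Efemp2, also called fibulin-3 and fibulin-4, the latter being needed for elastic fibre assembly. Efemp2 ran from 119 CPM in cell 9 through a median of 565 CPM to 906 CPM in cell 12. Efemp1 spread more widely, from 97.4 CPM in cell 10 through a median of 380 CPM to 2388 CPM in cell 6, with 1865 CPM in cell 7 and 1419 CPM in cell 12.

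Fbn1, the main fibrillin of microfibrils, had 46.7 CPM in cell 9, a median of 168 CPM and 373 CPM in cell 7. Another annotated gene shares 20.1% of its exonic bases. Mfap5, which binds fibrillin, was at 0 in cell 12 and at 2.44 CPM in cell 10, against a median of 209 CPM and 795 CPM in cell 3. Cell 12 therefore had the highest matrix sum without a count of Mfap5. Emilin1, an elastin interface protein, had 21.6 CPM in cell 9, a median of 85.2 CPM and 442 CPM in cell 10. Fbln5, which brings elastin and lysyl oxidase-like enzymes together, had no counts in cell 10, a median of 9.24 CPM and its highest levels of 130 CPM in cell 7 and 97.9 CPM in cell 12. Fbln1 was counted in 7 cells at up to 48.1 CPM, and Fbln7 in 4 cells at up to 7.76 CPM. Scaffold and linker transcripts were therefore present while none of the 12 cells held a count of elastin.

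The 5 lysyl oxidase genes, whose copper enzymes crosslink collagen and elastin, were each counted in at least 11 cells. Lox (chromosome 18, 52516067 to 52529867) was at 66.7 CPM in cell 10, at a median of 417 CPM and at 1824 CPM in cell 12, with 1262 CPM in cell 8. Loxl1, the enzyme most closely tied to elastin, had no counts in cell 10 and otherwise ranged from 86.5 to 430 CPM. Loxl3 was lower, with 24.1 CPM in cell 5, a median of 53.4 CPM and 174 CPM in cell 12. Loxl2, which acts on collagen IV, went the other way: its highest level was 44.7 CPM in cell 10, and the next was 18.6 CPM in cell 12. Loxl4 was at 0 in cell 10 and at 72.4 CPM in cell 8. The summed crosslinking genes followed the sum of Col1a1, Col1a2 and Col3a1 across the 12 cells, with a Spearman rho of 0.83, and of 0.77 without cell 10. These sums share libraries and totals, and the correlation is a description.

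Of the 13 matricellular and calcium-binding genes, 5 were counted in every cell and 1 in none. Sparc (chromosome 11, 55394500 to 55423183), a collagen-binding glycoprotein, was high throughout, from 706 CPM in cell 9 through a median of 2580 CPM to 6623 CPM in cell 10. Ecm1, a glycoprotein that binds perlecan and fibulins, had 321 CPM in cell 9, a median of 1013 CPM and 1804 CPM in cell 1. Both genes were thus abundant in each library.

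Spp1 (osteopontin, chromosome 5, 104435118 to 104441050), a secreted ligand of integrins and CD44, was at 16.7 CPM in cell 6, at a median of 72.6 CPM and at 9942 CPM in cell 3. The next cell, cell 7, had 932 CPM, and the median of the other 11 cells was 67.3 CPM. Another annotated gene shares 18.75% of the exonic bases of Spp1. Mgp (matrix Gla protein, chromosome 6, 136872435 to 136875823), an inhibitor of calcification, was at 2.17 CPM in cell 11, at a median of 13.4 CPM and at 2868 CPM in cell 3. Its next highest level was 121 CPM in cell 10. Cell 3 thus held 148 times the median of the other cells for Spp1 and 220 times for Mgp. Among the 6 haematopoietic markers, Cd53 set cell 3 most clearly apart, at 1463 CPM against 19.4 CPM in the next cell. Csf1r was at 59.1 CPM there against 19.7 CPM in the next cell, Lyz2 at 30.3 against 20.2 CPM and Cd68 at 69.1 against 64.4 CPM, while Ptprc and Itgam had no counts in cell 3. Cell 3 also had the lowest Y-linked sum. The part of these transcripts in the Spp1 and Mgp levels was not tested.

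Thbs1 (thrombospondin-1), an activator of latent transforming growth factor beta, was at 15.5 CPM in cell 9, at a median of 417 CPM and at 4668 CPM in cell 7. Cells 11, 12 and 3 followed at 1240, 1231 and 1001 CPM. Tgfbi, an adhesion protein induced by transforming growth factor beta, had 1047 CPM in cell 10 and a median of 17.9 CPM. Its next highest level was 94.1 CPM in cell 5, and cells 3, 7 and 11 held no counts. Thbs2 had counts in 10 cells, the highest being 195 CPM in cell 1. Tnc (tenascin-C), a glycoprotein of tissue repair, had counts in 9 cells and was highest in cells 1 and 4, and Matn2 in 10 cells at up to 35.1 CPM. Thbs3 was counted in 7 cells at up to 18.1 CPM.

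Among the 8 proteoglycan genes, biglycan dominated. Bgn (chromosome X, 73483602 to 73495933) was at 552 CPM in cell 2, at a median of 2967 CPM and at 5559 CPM in cell 12, and cells 2, 9 and 10 were the lowest, at 1022 CPM or less. Vcan (versican), a large hyaluronan-binding proteoglycan, was counted in every cell, from 18.8 CPM in cell 2 through a median of 84.7 CPM to 431 CPM in cell 1. The other small leucine-rich genes were sparse. Dcn (decorin), a close relative of biglycan that marks fibroblasts in many tissues, was counted in 3 cells, at 223 CPM in cell 3, 12.4 CPM in cell 7 and 7.44 CPM in cell 6. Prelp had counts in 7 cells, with 499 CPM in cell 3, 144 CPM in cell 6 and 35.8 CPM in cell 5 as its highest levels. Ogn was counted in 5 cells at up to 29.9 CPM and Aspn in 7 cells at up to 12.4 CPM. Cell 3 was highest for Dcn, Prelp and Aspn, and had neither Ogn nor Lum counts.

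Hyaluronan synthases, which extrude the polysaccharide through the plasma membrane, were low. Has2 was counted in 9 cells, with a median of 23.9 CPM and 239 CPM in cell 12. It had no counts in cells 2, 10 and 11. Has1 was counted in cells 1, 6 and 12, at up to 15.3 CPM. Has2 and Lama4 had the highest Spearman rho, 0.87 over 12 cells, among the 630 pairs of the 36 matrix genes that passed the filter on level given below: the same 3 cells lacked counts of both genes, and cell 12 was highest for both.

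Basement membrane genes were led by Nid1 (nidogen-1, chromosome 13, 13437551 to 13512269), which links laminin to collagen IV. Nid1 was at 298 CPM in cell 6, at a median of 721 CPM and at 2972 CPM in cell 8, with 2021 CPM in cell 1 and 1405 CPM in cell 4. Nid2 was counted in 10 cells at no more than 15.6 CPM. Hspg2 (perlecan), a heparan sulfate proteoglycan, ranged from 14.5 CPM in cell 3 through a median of 37.0 CPM to 165 CPM in cell 10. Agrn (agrin) was counted in 11 cells at up to 28.2 CPM.

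A laminin molecule holds 1 alpha, 1 beta and 1 gamma chain, so the chains were compared per length, including Lama1, Lama3 and Lamb3 from the wider matrix list. Lamb1 was among the steadiest matrix genes, at 26.0 ± 8.92 RPKM (SD, 12 cells), lowest in cell 6 (14.1 RPKM) and highest in cell 10 (38.8 RPKM). Lamb2 was at 5.85 ± 3.13 RPKM and Lamc1 at 18.7 ± 9.63 RPKM. Lamb1 made up a median of 81.6% of the beta chain level. Alpha chains were scarcer. Lama4, the alpha chain of vessels and mesenchyme, was counted in 9 cells, with a median of 4.30 RPKM and 29.7 RPKM in cell 12. Lama5 was counted in 5 cells at up to 0.699 RPKM, and Lama1, Lama2 and Lama3 had no counts. Cells 2, 10 and 11 had no count of any alpha chain gene, while their beta chains summed to 20.3, 41.6 and 23.5 RPKM. Lamb3 was counted in cell 1 only, at 0.219 RPKM.

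**Figure D4:**
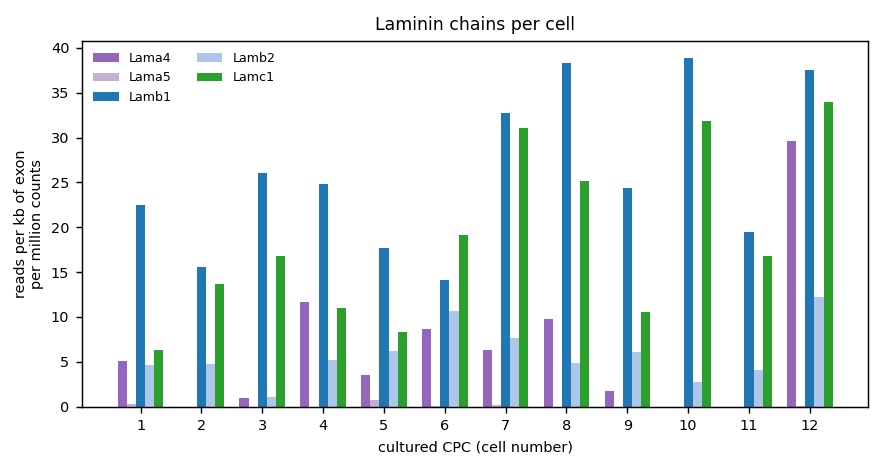
Level per length of 5 laminin chain genes in each of the 12 cells (bars, RPKM). Lamb1 and Lamc1 are present in each cell, Lama4 peaks at 29.7 RPKM in cell 12, and cells 2, 10 and 11 have no Lama4 or Lama5 bar.

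Variation between cells was compared with that of other genes at the same level. For each gene, the squared coefficient of variation of its CPM was taken on a log10 scale, and the moving median of genes with a similar mean was subtracted to give a residual. This was done for genes with a mean of 5 CPM or more counted in at least 3 cells. Of the 52 genes, 36 passed this filter and 16 did not. Among those that passed, 19 (52.8%) had a residual over 0.5, against 10.2% of the 9701 genes that passed in all, and the median residual was 0.58 against 0.00. The filter keeps a gene that is high in a single cell and drops one that is low in every cell, so these values describe the genes that passed and not the whole list. The largest residuals were those of Mgp (1.85), Spp1 (1.77), Tgfbi (1.61), Prelp (1.41) and Dcn (1.41). At the other end, Nid2 (-0.11), Lamb1 (-0.10), Agrn (-0.02) and Lamb2 (-0.02) lay below the running median. Just above the limit were Loxl4 (0.57) and Tnc (0.59), and just below it Loxl1 (0.44) and Hspg2 (0.43). By role, 6 of 9 matricellular genes, 4 of 8 elastic fibre genes, 3 of 4 proteoglycan genes and 2 of 8 basement membrane genes that passed were over the limit. In 4 of the 36 genes, namely Mgp, Dcn, Tgfbi and Spp1, the highest cell held 10 or more times the level of the next, which was so for 0.907% of all genes that passed. Cell 3 was the highest for Mgp, Dcn and Spp1, and cell 10 for Tgfbi. Dcn had a mean of 1.80 CPM without cell 3, so it passed the filter of 5 CPM only through that cell.

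**Figure D5:**
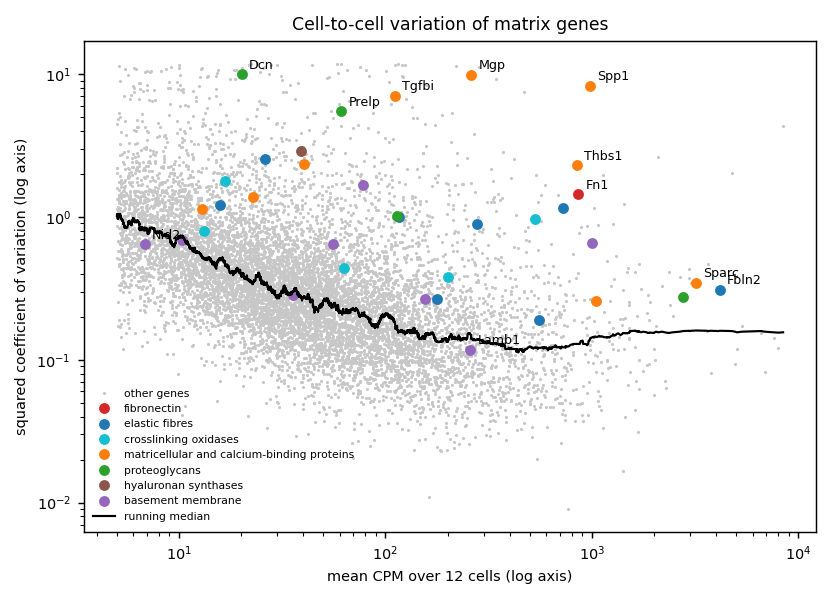
Squared coefficient of variation against mean CPM over 12 cells (both axes log), for 9701 genes (grey), with the 36 matrix genes that passed the filter coloured by role and the running median as a line. Mgp, Spp1, Tgfbi, Prelp and Dcn lie far above the line, and Lamb1 and Nid2 lie on or just below it.

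Matrix genes did not rise and fall as 1 block. Over 630 pairs of the 36 genes, Spearman's rho across the 12 cells had a median of 0.16, against 0.02 over all pairs of genes that passed. A rho of 0.6 or more was found in 46 pairs (7.30%), against 3.38% of all pairs. The highest values after Has2 with Lama4 were those of Fbn1 with Loxl1 and Fbln5 with Bgn, both at 0.82, Fbln5 with Lama4 (0.82), Sparc with Lamc1 (0.80) and Fbn1 with Fbln5 (0.78). Within roles the median rho was 0.31 for the 6 proteoglycan pairs, 0.29 for elastic fibre pairs, 0.21 for matricellular pairs, 0.08 for crosslinking pairs and 0.06 for basement membrane pairs. Fbln1 ran against the laminin genes Lamb1 and Lamc1, with a rho of -0.80 and -0.70. It had no counts in cells 3, 7, 8, 10 and 12. Cells 7, 8, 10 and 12 had the highest Lamb1 levels, at 325, 379, 385 and 372 CPM, and the fewest genes counted, 10022 to 10069. The part of gene detection per library in these 2 values was not tested. All pairs share the same libraries, and the values rest on 12 cells.

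Cells 10, 12, 3 and 9 held the highest or the lowest level of many of the genes. Cell 10 was the highest for 8 genes, namely Fn1, Sparc, Tgfbi, Emilin1, Hspg2, Lamb1, Loxl2 and Mfap2, and was at 0 for Fbln1, Fbln5, Loxl1, Loxl4, Tnc, Has2 and Lama4, among others. With its endothelial marker sum of 9810 CPM and collagen sum of 12.2 CPM, its matrix sum of 20854 CPM was near the median. Cell 12 was the highest for 12 genes, among them Fbln2, Efemp2, Bgn, Lox, Loxl1, Loxl3, Lamc1, Lama4 and Has2, and also had the highest sum of the 3 collagens, 6118 CPM. Cell 3 was the highest for 7 genes, Spp1, Mgp, Mfap5, Dcn, Prelp, Aspn and Agrn, and matricellular genes held 67.6% of its matrix sum. Cell 9 alone was the lowest for 7 genes, Fbn1, Efemp2, Emilin1, Loxl2, Sparc, Thbs1 and Ecm1.

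Cell 9 also had the highest sum of the cell cycle genes that the study names (Cdk1, Ccnb2, Aurka, Aurkb and the centromere genes Cenpa, Cenpe and Cenpf), 3725 CPM. Across the 12 cells the matrix sum and this cell cycle sum had a rho of -0.59, of -0.47 without cell 9 and of -0.67 without cells 3, 10 and 11. With Spp1 and Mgp left out of the matrix sum, rho was -0.44. By role, rho was -0.85 for the matricellular sum, -0.24 for the elastic fibre sum, -0.22 for the proteoglycan sum, -0.25 for fibronectin, -0.14 for the basement membrane sum, -0.01 for the crosslinking sum and 0.30 for the hyaluronan synthase sum. The differences between roles were not tested. Among single genes, Thbs1 had a rho of -0.73 and Sparc of -0.61, whereas Nid2 had one of 0.85. These genes lie at the ends of the range over the 36 genes. A rho of -0.6 or below was found for 2 of the 36, and for 3.03% of all genes that passed. Of the 36 genes, 23 had a rho below 0, and 41.1% of all genes that passed did. Since CPM are shares of a fixed total, a high share of other transcripts in a cell lowers the rest, and the part of this in the values was not tested. The matrix sum had a rho of 0.11 with the total count, -0.35 with the number of genes counted and 0.09 with the collagen sum. The last rose to 0.53 without cells 3, 10 and 11.

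Beyond the 52 genes, 55 further matrix and cell surface proteoglycan genes were read as a wider list. A count was present in 46.1% of their gene-by-cell values, against 50.5% over all genes. In this list 13 genes (23.6%) were counted in every cell and 13 (23.6%) in none, against 35.3% and 33.4% of all genes. The highest levels per length were those of Igfbp7 (1432 RPKM), Ctgf (398 RPKM), Cyr61 (200 RPKM), Sdc2 (57.0 RPKM) and Sdc4 (44.9 RPKM). Igfbp7, a secreted binding protein of insulin-like growth factors, was at 214 to 3246 CPM with a median of 1657 CPM. Ctgf, a matricellular target of YAP signalling, had 2.82 CPM in its lowest cell, a median of 674 CPM and 5722 CPM in cell 8. Of the 23 genes that passed the filter on level, 10 had a residual over 0.5, against 10.2% of all genes that passed, and the median residual was 0.35 against 0.00. The largest were those of Smoc1 (1.46), Srgn (1.33) and Spon2 (1.32). Smoc1 and Srgn were highest in cell 10, at 233 and 150.2 CPM, and Spon2 in cell 7, at 575 CPM. Without cell 10 the mean was 0.899 CPM for Smoc1 and 0.523 CPM for Srgn. Both thus passed the filter of 5 CPM only through the cell in which they were high. As for the 52 genes, the residuals describe only the genes that passed.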

How the data were processed

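Smart-Seq v4 cDNA and Nextera XT libraries of 12 cultured CPCs, each a single cell, were sequenced. Per the labels and the study's methods, the authors mapped paired reads to mm10 with STAR 2.5.2b and used reads with a unique position. The deposited table holds unnormalised read counts of each gene. The counting program, annotation and strand rule are not given in the sources used here, so overlapping or near-identical genes are uncertain.

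Columns were matched to cells by name. CPM used the total of all genes per cell (3453708 to 5690184). RPKM divided CPM by the union of exons in GENCODE vM21 (GRCm38, the same build as mm10), which gave a length for 99.8% of symbols. Long transcripts may be covered unevenly. Dispersion used a running median over 201 genes. No test was run, as the cells count as 1 sample, and no 2 libraries were duplicates (lowest chi-square per degree of freedom 48.5 over 66 pairs). Doublets were not called, since cells were picked singly. The members, roles and lists were chosen with earlier results of these data known. Named genes were, per role, the 3 highest per length and the 3 with the largest residual, genes with no count and laminins; the 5 largest residuals overall were added, and 5 and 3 genes of the wider list were taken likewise. Values of other members, such as Thbs1, Fbn1 and Emilin1, were added after they were seen. A gene of the wider list is not reported here. Scale, depth, thresholds, length and left-out cells were varied. In data simulated from the real means of 14462 genes, 77.8% of 200 varied genes and 0.445% of the others passed the residual limit of 0.5. The varied genes were given a larger spread, and all others followed a single smooth trend of spread with the mean. In the real data 10.2% of genes passed, so 0.445% is not a rate of false calls for them. Scripts ran under Python 3.11.15 with scipy 1.17.1, pandas 2.3.3, numpy 2.4.6 and, for plots, matplotlib 3.10.9.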

Additional observations from a re-analysis of the deposited data

How the results depend on the processing

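For 19 results, 66 alternatives that kept or jointly removed cells were computed. In 63 of them the value stayed within 1 SD of the cells, genes or pairs it summarises or, for a number of genes, within 1.5 times, and in 3 it did not: the share with a count at 10 CPM or more in both lists, and at 10 counts or more in the wider list. The share of gene-by-cell values with a count fell from 68.3% to 63.1% at 10 counts or more and to 55.3% at 10 CPM or more for the 52 genes. For the wider list it fell from 46.1% to 40.8% at 5 counts or more, to 38.5% at 10 counts or more, to 40.8% at 1 CPM or more and to 30.2% at 10 CPM or more. A stricter limit takes in fewer values by construction. The SD over cells was a wide measure for some sums. For the fibronectin sum it was 1028 CPM at a median of 542 CPM, and for hyaluronan synthases 70.3 CPM at 27.5 CPM. Any lower value of these 2 medians would have stayed within it, so their labels say little. Removing single cells gave 180 values, each within the spread so defined. The median matrix sum then ran from 19799 to 20249 CPM, the number of genes counted in every cell from 21 to 24 and the number with a residual over 0.5 from 17 to 21. Without cells 3, 10 and 11, an alternative chosen after seeing the data, these were 19799 CPM, 26 and 18 genes. The same setting gave a median of 3778 CPM for the matricellular sum in place of 5359 CPM. With single cells removed, the pooled share of the matrix sum ran from 30.6 to 34.8% for elastic fibre genes and from 30.3 to 36.1% for matricellular genes. These shares were 36.9% and 27.2% without cells 3, 10 and 11, and their alternatives were also added after seeing the data. Measured as the SD of log2(CPM + 1) or of log2(CPM + 10), 18 and 21 genes passed a limit that the same share of all genes passed. With the longest transcript as the length, the 10 highest genes were the same, and by the median over cells 8 of them were. No paired analysis was possible because the cells form 1 group. The number of cells, 12 from 1 culture condition, limits each statement on variation, and depth limits genes near 3 counts.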
